A study of Bos taurus with 4 samples.

Results

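FGB (ENSBTAG00000022120), CHST13 (ENSBTAG00000008778) and GSTT3 (ENSBTAG00000008587) are 3 of the 24616 Ensembl cattle genes measured by RNA-Seq in longissimus dorsi muscle of Aberdeen Angus steers. They were chosen by their values in these libraries, on the difference between the diets and on the difference between the grain-fed libraries, where the first read higher than the second. Both features are therefore given below as a description, with no test.

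The study set 2 grain-fed steers beside 2 grass-fed steers of 1 herd, assigned at random to a diet after weaning. The grain ration was built on corn silage, shelled corn and soybean, and the grass-fed steers grazed alfalfa, with stored forage in winter. The libraries are named Grain1, Grain2, Grass1 and Grass2, and these names give a diet but not a steer. Grass-fed steers took longer to reach their final weight, so diet cannot be told apart from age and season.

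FGB encodes the beta chain of fibrinogen, which the liver makes together with the alpha chain (FGA) and the gamma chain (FGG) and releases into plasma. Thrombin turns fibrinogen into fibrin during clotting, and the liver raises its output of fibrinogen in the acute phase response. CHST13 encodes a Golgi sulfotransferase that adds sulfate to position 4 of the galactosamine units of chondroitin, a sugar chain of the extracellular matrix. GSTT3 encodes a theta-class glutathione transferase, an enzyme family that joins glutathione to reactive compounds. In the RefSeq annotation of assembly ARS-UCD2.0, used here for gene order only, FGB lies beside FGA and FGG. CHST13 lies next to UROC1, a histidine-degrading enzyme of the liver. GSTT3 is listed there as a synonym of GSTT2, next to GSTT1, and reads of such close relatives could have been split between them in the authors' counting.

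The primers designed in the study to measure these genes by qPCR are shown because they are the only sequences at hand for them. The study labels each primer with a gene name and identifier, and the sequences were not aligned here. It reports that qPCR gave the direction of its RNA-Seq for every gene checked, with parallel results for FGB. The qPCR values were not used here. All primers run 5′ to 3′ in lower case, with no base in capitals.
FGB forward: cgtggtcactgagttaggctt
FGB reverse: ggtcctcaagtctacctccct
CHST13 forward: ccttcttggcctcagtccag
CHST13 reverse: acggtcctgtctactctgct
GSTT3 forward: ccatgaaggagaggctgaag
GSTT3 reverse: ggtgaagctagtgggcagac

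Both FGB primers are 21 bases long and the other 4 are 20 bases long, with between 52.4% and 60% G and C.

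The deposited values are edgeR pseudo-counts, that is, counts adjusted to 1 common library size, and they were inverted here to whole reads. The libraries held 5683894 (Grain1), 6530977 (Grain2), 6776619 (Grass1) and 7447453 (Grass2) reads on genes. A count of 0 allows up to 3 reads, between 0.403 and 0.528 reads per 1000000 reads on genes (RPM) in these libraries. The gene with most reads took 15.5% of Grain2 and between 7.34% and 9.22% of the other libraries. Intervals below are 95% intervals for counting error only, since the reads carry no molecular identifiers. An exact permutation test of 2 libraries against 2 cannot give a p-value under 0.333, and the spread between 2 libraries of a diet can be technical as well as between steers. The muscle label was not checked against muscle markers, because 0 of the 15 muscle genes listed for this purpose could be paired with an identifier.

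FGB was read 1441 times in Grain1, 86 times in Grain2, 21 times in Grass1 and 0 times in Grass2. These are levels of 254 RPM (interval 241 to 267), 13.2 RPM (10.5 to 16.3), 3.10 RPM (1.92 to 4.74) and 0. Both grain-fed libraries stood above both grass-fed ones, and most of the FGB reads came from Grain1. The mean level was 133 ± 170 RPM on grain and 1.55 ± 2.19 RPM on grass (SD, n = 2 each). The SD of each group was larger than its mean.

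CHST13 was read 267 times in Grain1, 39 times in Grain2, 0 times in Grass1 and 1 time in Grass2. The corresponding levels were 47.0, 5.97, 0 and 0.134 RPM. Grain-fed and grass-fed libraries did not overlap, and both grass-fed levels lay under the limit set by 3 reads. The group means were 26.5 ± 29.0 and 0.0671 ± 0.0949 RPM (SD, n = 2 each).

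GSTT3 was read 155 times in Grain1, 52 times in Grain2, 1 time in Grass1 and 0 times in Grass2. Its levels were 27.3, 7.96, 0.148 and 0 RPM. The order of the libraries was again Grain1, then Grain2, then the grass-fed pair, of which neither passed the limit of 3 reads. The grain-fed mean was 17.6 ± 13.7 RPM and the grass-fed mean 0.0738 ± 0.104 RPM (SD, n = 2 each). Of the 3 genes, GSTT3 had the smallest spread between grain-fed libraries relative to its mean.

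**Figure D1:**
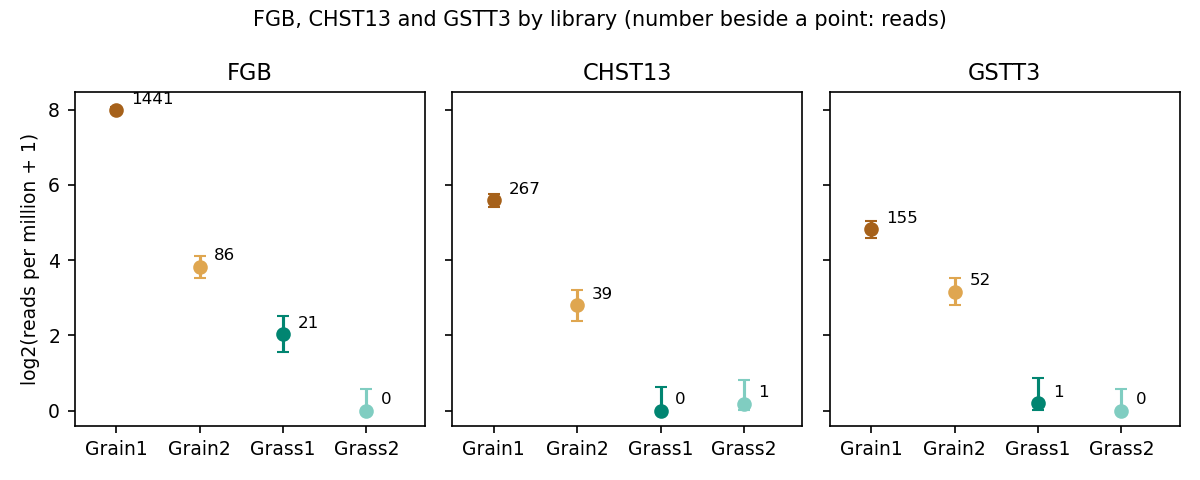
Levels of FGB, CHST13 and GSTT3 in RPM, plotted as log2(RPM + 1) for each of the 4 libraries, with the reads written beside each point and bars for the 95% counting interval. In each panel Grain1 is highest and Grain2 next, and FGB is the gene with reads above the limit of 3 in a grass-fed library (21 in Grass1).

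In the deposited pseudo-counts the same order held. FGB had 1887, 119, 16.2 and 0 in Grain1, Grain2, Grass1 and Grass2, CHST13 had 349, 54.2, 0 and 0.742, and GSTT3 had 203, 72.1, 0.783 and 0. All 3 genes passed the filter of the diet comparison, a mean of at least 1 when deposited values are set per 1000000, and they passed it through the grain-fed libraries. Both grain-fed values lay above both grass-fed values in 18.2% of the 10461 genes tested with deposited values, and in 6.53% with RPM. These shares are given as background, and nothing is read from the members' count against them because the rule used this contrast.

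The distance between the diets depended on the library that stood for grain. Over the pooled reads of each diet, FGB was 84.7 times as high on grain as on grass (counting interval 55.2 to 137). Most of the pooled grain-fed reads came from Grain1, and the interval leaves out the spread between libraries. With Grain2 alone FGB was 8.92 times as high (5.48 to 15.1). Both ratios use the same grass-fed reads, and they describe a contrast that took part in the choice of FGB.

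CHST13 was 356 times as high on grain as on grass over pooled reads (63.5 to 14120), and 84.9 times with Grain2 alone (14.4 to 3440). GSTT3 gave 241 (42.8 to 9566) and 113 (19.4 to 4558). Each of these ratios rests on 1 grass-fed read, which is why the upper bounds are so wide.

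On the scale of log2(deposited value per 1000000 + 1), grass minus grain was -5.29 for FGB, -4.37 for CHST13 and -4.17 for GSTT3. The SD between libraries of a diet on this scale was 2.14, 1.28 and 0.71, respectively. Without Grain1 the differences were -3.34, -3.10 and -3.47, so that GSTT3 then had the largest difference and not FGB. Without Grain2 they were -7.25, -5.64 and -4.88. This scale understates the change of genes with few reads.

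Grain1 over Grain2, both in RPM, was 19.3 for FGB (interval 15.5 to 24.2), 7.87 for CHST13 (5.61 to 11.3) and 3.42 for GSTT3 (2.49 to 4.78). The 3 genes shared the direction but not the size, and their counting intervals did not overlap. These intervals leave out the spread between libraries and the ratio took part in the choice, so no difference between the genes is tested. The ratio of FGB was 2.45 times that of CHST13 and 5.62 times that of GSTT3, and that of CHST13 was 2.30 times that of GSTT3. Grain1 held 94.4% of the grain-fed reads of FGB (exact Clopper-Pearson interval 93.1% to 95.5%), 87.3% of those of CHST13 (83.0% to 90.8%) and 74.9% of those of GSTT3 (68.4% to 80.6%).

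Reads of 1 gene over reads of another within a library show the same fact without any scaling of libraries. FGB had 5.40 reads for each CHST13 read in Grain1 and 2.21 in Grain2. It had 9.30 reads for each GSTT3 read in Grain1 and 1.65 in Grain2. CHST13 had 1.72 reads per GSTT3 read in Grain1 and 0.75 in Grain2, where GSTT3 was the one with more reads. The genes thus did not keep 1 proportion to each other in the grain-fed libraries.

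Among the 9225 genes with at least 50 reads over the 4 libraries, the median of Grain1 over Grain2 was 1.20, with quartiles at 0.568 and 2.69. FGB lay above 95.1% of these genes, CHST13 above 90.2% and GSTT3 above 79.2%, as a description of a ratio that took part in the choice. A wide difference between the grain-fed libraries was thus common, and GSTT3 lay not far beyond the upper quartile. Among the 10461 genes tested, 1.19% had both grain-fed deposited values above both grass-fed values together with Grain1 at least 3 times Grain2, and 0.554% in RPM.

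**Figure D2:**
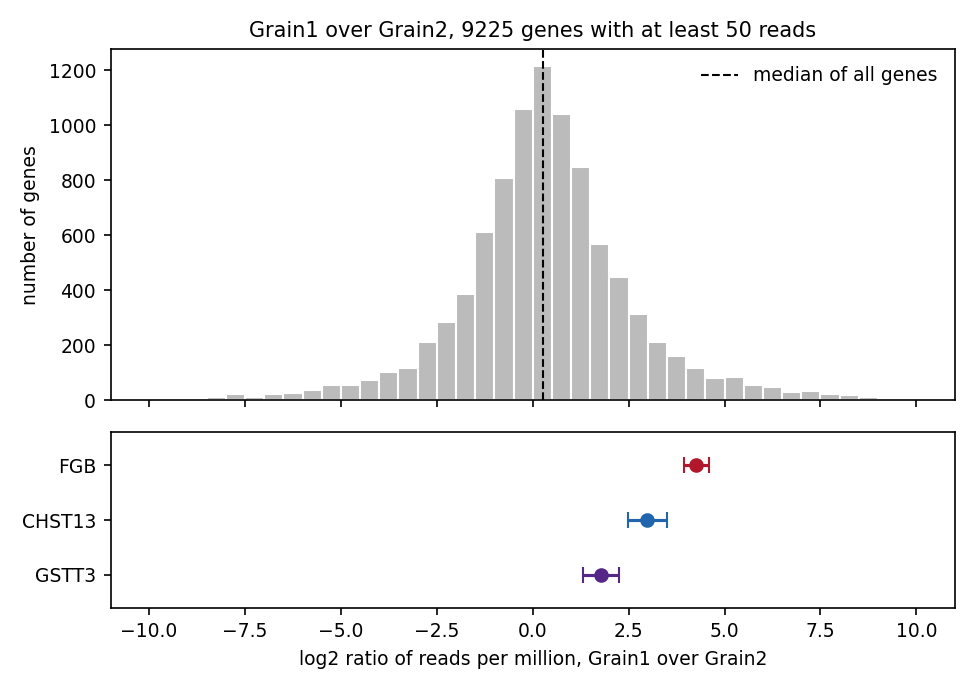
Above, the number of genes by log2 ratio of Grain1 over Grain2 in RPM (0.5 read added) for 9225 genes with at least 50 reads; below, the ratios of FGB, CHST13 and GSTT3 with 95% counting intervals. The 3 intervals lie right of the dashed median (a ratio of 1.20) and do not overlap each other. This is description only, since the ratio took part in the choice of the genes and the intervals hold counting error alone.

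Against the whole of the grain-fed libraries, the 3 genes lay on the Grain1 side of the cloud. The 59 genes that the study lists as lower on grass, which include these 3, split in several ways. Of them, 20 had over 95% of their scaled grain-fed reads in Grain1, FGB just among them, 15 had over 95% in Grain2, and 24 lay between. Of the 24 between, 17 were higher in Grain1, as were CHST13 and GSTT3. The study chose this list on the same libraries, so it is no independent evidence of a direction.

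**Figure D3:**
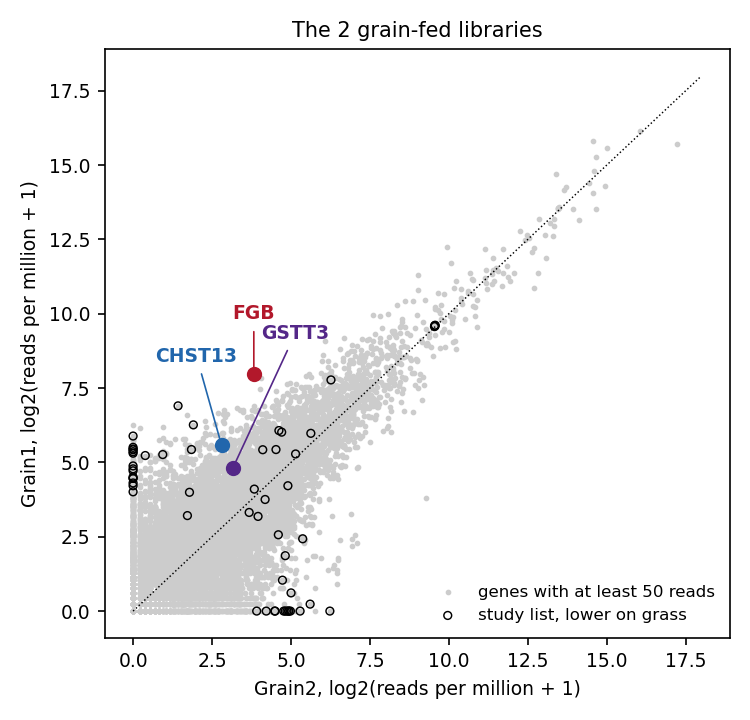
Level in Grain1 against level in Grain2, each as log2(RPM + 1), for 9225 genes (grey), with the 59 genes the study lists as lower on grass circled and the line of equal levels dotted. FGB, CHST13 and GSTT3 lie above the line, while other circled genes sit along either axis, with 0 reads in 1 of the grain-fed libraries.

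The likeness of genes was measured by the share of a gene that falls to each library once libraries are set to the same total, as the overlap of these shares over the 4 libraries, where 1 is identical. FGB fell 94.0% to Grain1, 4.88% to Grain2 and 1.15% to Grass1. CHST13 fell 88.5% to Grain1 and 11.2% to Grain2, and GSTT3 77.1% and 22.5%. FGB and CHST13 overlapped by 0.934, CHST13 and GSTT3 by 0.883, and FGB and GSTT3 by 0.824. CHST13 thus lay between the others.

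Of the 9225 genes, 77 overlapped FGB by at least 0.9, 17 overlapped CHST13 and 10 overlapped GSTT3. The gene nearest to FGB was ENSBTAG00000022395, with 240, 17, 2 and 4 reads in Grain1, Grain2, Grass1 and Grass2 (overlap 0.980). The gene nearest to GSTT3 was ENSBTAG00000039237, with 47, 15, 0 and 0 reads (0.988), and the gene nearest to CHST13 had 85, 16, 0 and 0 reads (0.972). Names were not paired with these identifiers in the tables used here. A share of at least 75% in a single library, which all 3 genes have in Grain1, was found for 1.57% of the genes in Grain1, 1.16% in Grain2, 2.27% in Grass1 and 0.434% in Grass2. Such genes were thus found in each of the libraries, and Grass1 had the most.

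Genes known for expression in the liver are the other readout set beside FGB, CHST13 and GSTT3. In bulk muscle, fewer cells of a type and less RNA per cell cannot be told apart. Of 35 listed plasma proteins of the liver, besides FGB itself, only TTR and SERPINA3 could be paired with an identifier. Both names are inferred: no table pairs them with an identifier directly, and each was matched to the 1 gene in the study's lists with the same log ratio. TTR encodes transthyretin, a carrier of thyroid hormone and of retinol-binding protein, and SERPINA3 encodes a serine protease inhibitor of the acute phase. The study chose both on the same libraries, and SERPINA3 belongs to a family of near-identical genes in cattle, so its reads are uncertain. AMBP, another of the 35 listed, is named by the study among its strongest genes but could not be paired here. In the study's pathway analysis of genes lower on grass, acute phase response signaling was among the top pathways. That analysis used the same libraries.

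TTR was read 253 times in Grain1 and 0 times in Grain2, Grass1 and Grass2. SERPINA3 was read 331 times in Grain1 and 0 times in the other 3 libraries. Together they took 103 RPM in Grain1 (interval 94.6 to 111). Set against the limit of 3 reads in Grain2, TTR was at least 96.9-fold higher in Grain1 and SERPINA3 at least 127-fold. FGB, CHST13 and GSTT3 differed from them in having 86, 39 and 52 reads in Grain2.

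For FGB, Grain1 held 5.70 reads per TTR read and 4.35 per SERPINA3 read. CHST13 had 1.06 and 0.807 reads for each read of TTR and SERPINA3 in that library, and GSTT3 had 0.613 and 0.468. No such proportion can be given for Grain2, where TTR and SERPINA3 had 0 reads. Nothing is read from this, since the reads of both libraries took part in the choice of the 3 genes, and TTR and SERPINA3 could be named only through the study's own list. Whether liver-type RNA took part in the Grain1 values was not tested.

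For a gene read in Grain1 alone, the overlap with another gene equals the share of that gene that falls to Grain1. TTR and SERPINA3 therefore overlapped FGB by 0.940, CHST13 by 0.885 and GSTT3 by 0.771. CAMK1D, a calcium and calmodulin dependent kinase (243, 0, 0 and 0 reads), and A2ML1, a protease inhibitor related to alpha-2-macroglobulin (220, 0, 0 and 0), were also read in Grain1 alone and by construction had the same overlaps.

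KRT5, a keratin of basal epidermal cells, and CA12, a membrane carbonic anhydrase, were read in both grain-fed libraries and in neither grass-fed one, with more reads in Grain2. KRT5 had 100, 189, 0 and 0 reads in Grain1, Grain2, Grass1 and Grass2, and CA12 had 71, 112, 0 and 0. Their overlap with GSTT3 was 0.603 and 0.646, above that with FGB (0.427 and 0.470). The opposite order of the grain-fed libraries was also seen in genes read almost only in Grain2. PRSS35, a serine protease-like protein, had 0, 249, 0 and 0 reads, and the DNA helicase HELQ had 3, 203, 0 and 0. The DNA-sensing receptor TLR9 had 0, 193, 0 and 0 reads, and the secreted phospholipase PLA2G2A had 0, 185, 0 and 0.

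**Figure D4:**
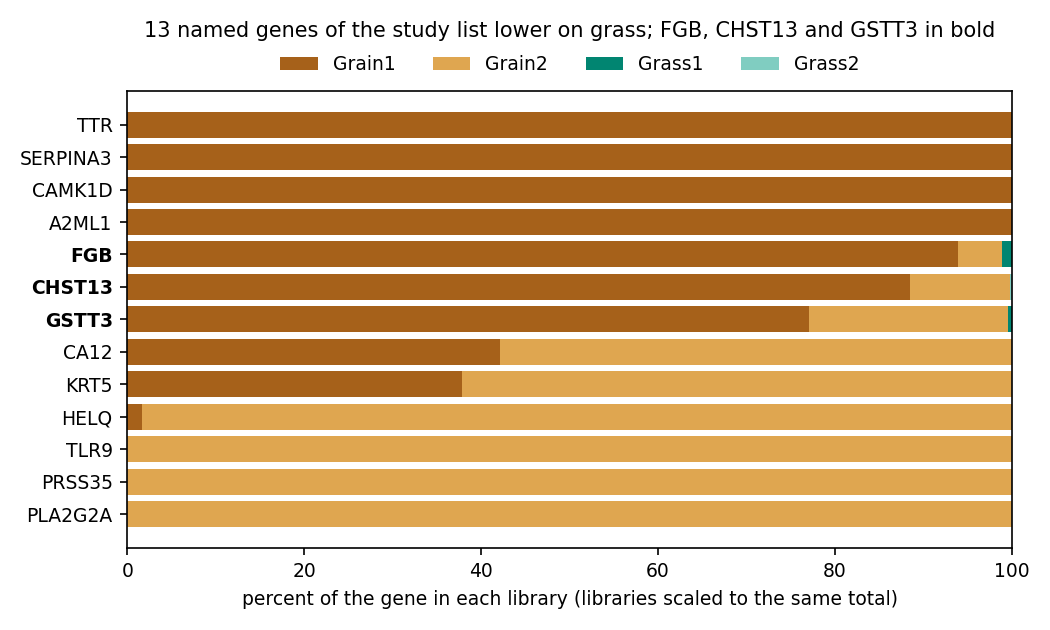
Share of each library (percent, libraries set to the same total) in the 13 genes lower on grass that could be named, from those read in Grain1 alone to those read in Grain2 alone. FGB, CHST13 and GSTT3, in bold, fall 94.0%, 88.5% and 77.1% to Grain1, between TTR (all reads in Grain1) and CA12 (more in Grain2).

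Other genes of the same pathways could not be followed. Of the genes listed as coagulation partners of fibrinogen (16, with FGA and FGG), chondroitin and dermatan sulfate synthesis (25) and glutathione transferases with glutathione synthesis (27), 0 could be paired with an identifier. The same held for the lists of hepatocyte enzymes (20 genes), liver transcription factors (9) and interleukin 6 and acute phase signalling (10), and for platelet (8), erythroid (8), kidney tubule (7) and adipocyte (6) markers. Of the 11 epidermal markers KRT5 was paired. Of the 10 intestinal markers 8 were, with 4, 0, 2197 and 23 reads in all in Grain1, Grain2, Grass1 and Grass2. The intestinal reads were nearly all in Grass1, the grass-fed library with the 21 FGB reads, and their part in those reads was not tested.

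In the diet comparison over all genes, limma called 0 of 10461 genes at an adjusted p-value under 0.1 (0%), with a smallest adjusted p-value of 0.272. Calls depended on the test and filter: limma with no filter called 122 genes, DESeq2 293 and the edgeR quasi-likelihood test 0. Without adjustment in limma, 918 genes (8.78%) had a p-value under 0.05, of which 451 were lower on grass (4.31%). This count rested on single libraries: it was 2259 without Grain1 (1119 lower on grass), 2570 without Grain2 (1393 lower), 177 without Grass1 (107 lower) and 673 without Grass2 (72 lower). The 11 listed genes with an identifier, all named through lists or primers the study chose on these libraries, had 0 calls, 3 with lower and 8 with higher values on grass. For TTR, grass minus grain was -2.84 on the log2 scale (SE 1.64, limma adjusted p = 0.630), and for SERPINA3 it was -3.03 (SE 1.72, limma adjusted p = 0.628). KRT5 differed by -4.83 (SE 0.72, limma adjusted p = 0.272), and its 2 grain-fed libraries lay closer to each other than those of TTR and SERPINA3.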

How the data were processed

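Total RNA of 4 muscles was sequenced at 50 bases per read. The labels name Trizol extraction of total RNA, whereas the study's methods describe purified mRNA. Reads were aligned by the authors with Bowtie to UMD3.1 (BosTau6), counted per gene with GenomicRanges and processed with edgeR (versions: not given in the sources used here). As deposited, the values are a signal, namely edgeR pseudo-counts that the authors adjusted to 1 library size common to all 4 libraries, with the model applied to the libraries of each diet. This step was undone here at a fitted dispersion of 0.605, which gave whole reads for 100% of the 13198 and 15519 genes with reads (relative tolerance 1e-05). The inversion, limma and the edgeR likelihood ratio test were also run on simulated counts. These counts had a smaller dispersion than the 0.605 fitted here, so that run does not show how the tests perform on these data.

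The columns name a diet, not a steer, so each stands for 1 replicate of its diet. Genes were compared with limma 3.58.1 (mean-variance trend) on log2(value + 1), the deposited values being set per 1000000 of the mean column total, keeping genes whose mean reached 1. The Benjamini-Hochberg adjusted threshold was 0.1. Alternatives on recovered reads used DESeq2 1.42.0 and edgeR 4.0.16 in R 4.3.3. The likelihood ratio test of edgeR was run in 3 versions, each with the counts of calls from an earlier analysis of these data known: first with 1 joint dispersion estimate on genes with reads, then with it on all genes, and last with common, trended and tagwise estimates on all genes. The last is kept as the main version of this test because the study's methods name these estimates. It was reached after the other 2 had been seen, and its counts equal those known beforehand, so it was not fixed in advance. The counts of all 3 are given. The table of the authors' comparison was not used for values. Its log ratios served only to pair names: 8 names came from the primer table and 19 more, TTR and SERPINA3 among them, by a log ratio that matched 1 gene, 27 in all. The RefSeq table held an Ensembl identifier for 0 of 37063 genes, and 11 of the 203 listed symbols were paired.

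The genes, lists and tests were chosen with earlier results of these data known. The limits of 0.9 and 0.95 for overlap, 75% for a share and 3-fold for Grain1 over Grain2 were set with values in view. Named genes are the 3 genes, FGA and FGG, listed genes with at least 50 reads, the genes most alike, and genes the study names among its strongest lower on grass. Of the 5 genes most alike to each, only the nearest is described, and for CHST13 also FGB, which is among its 5. Names were not paired with the rest. Promoter motifs were not analysed here.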

Additional observations from a re-analysis of the deposited data

How the results depend on the processing

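No paired analysis was possible because no replicate number in the labels joins a grain-fed steer to a grass-fed steer, and the column numbers are not tied to steers. Under each scaling, pseudocount and left-out library the 3 genes were lower on grass, a sign fixed by their choice. Leaving out 1 library gave -7.25 to -3.34 for FGB, -5.64 to -3.10 for CHST13 and -4.88 to -3.47 for GSTT3, and the ends of each range are the values without Grain2 and without Grain1. A pseudocount of 4 gave -2.67 for CHST13 and -2.46 for GSTT3. Grain1 over Grain2 was 15.8 to 17.0 for FGB, 6.45 to 6.96 for CHST13 and 2.81 to 3.03 for GSTT3 under the other scalings, within the counting intervals. TTR and SERPINA3 took 113 per 1000000 in Grain1 in deposited values. Genes alike numbered 26, 9 and 3 for FGB, CHST13 and GSTT3 with at least 200 reads, and 22, 2 and 2 at an overlap of 0.95.

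Genes called for diet, 0 in limma, numbered 122 with no filter (112 higher and 10 lower on grass), 0 in the quasi-likelihood test (921 at an unadjusted p-value under 0.05), 293 in DESeq2 (87 higher, 206 lower), and 918 in limma without adjustment at 0.05. The likelihood ratio test with TMM factors and with read totals was planned, but its dispersion estimate and gene set were settled after seeing the data. In the order run, it called 171 (56 higher, 115 lower) and 293 (233 and 60) of the 16288 genes with reads and 88 (22 and 66) and 176 (130 and 46) of all 24616 genes with 1 joint estimate of dispersion (estimateDisp), then 173 (49 and 124) and 237 (177 and 60) of all genes with the estimates the study names. The last counts equal those of an earlier analysis, known at the time. Of the 11 listed genes it called 8 and 11, 5 and 10, and 9 and 11 in the same order, and DESeq2 called 5. All 11 were named through lists or primers the study chose on these libraries, so these calls are no independent evidence. The cause was not tested, and no statement on the 3 genes rests on these counts. Leaving out 1 library gave 0 calls each time in limma, over all genes and in the lists, but 177 to 2570 genes at an unadjusted p-value under 0.05. Rescaling columns to the same total moved the median of all genes from 0.11 to 0.67 and the split at an unadjusted p-value under 0.05 from 467 higher and 451 lower to 1417 and 123. Totals without mitochondrial genes were not run because those genes could not be identified here, and no pseudocount enters the reads of TTR and SERPINA3. Depth limits the grass-fed values of CHST13 and GSTT3, at 0 or 1 read.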
